A study of Mus musculus with 12 samples.

Results

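The comparison sets the 8 tumours of 2 knockout strains, taken as 1 side, against the 4 tumours of the WT strain, and so uses all 12 libraries of the series. Libraries were assigned by the genotype label, 4 to WT, 4 to C3_KO and 4 to S1pr1_KO. All 3 strains carry the MMTV-PyMT transgene, in which a mammary promoter drives polyoma middle T antigen, and primary tumours were collected at 4.5 months. Per the design text, WT mice carried MMTV-Cre together with MMTV-PyMT, although the strain label of the WT samples names MMTV-PyMT alone. C3_KO mice were MMTV-Cre;C3Tdt:MMTV-PyMT, with a modified allele of the complement gene C3. S1pr1_KO mice were MMTV-Cre;S1pr1fl/fl; MMTV-PyMT, with floxed alleles of a sphingosine-1-phosphate receptor gene. The MMTV promoter directs Cre mainly to mammary epithelium, so the targeted gene can persist in vessels, immune cells and stroma. The 3 strains came from separate crosses, and what both knockout strains share against WT can belong to the knockouts or to the breeding, which cannot be told apart here.

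PyMT tumours grow from luminal cells and hold blood vessels, fibroblasts, fat and immune cells beside the epithelium, and a tumour piece mixes all of them. C3 is cleaved into fragments that opsonise targets and recruit leukocytes, and S1pr1 is a G protein-coupled receptor known for vessel stability and lymphocyte exit from lymphoid organs. The products are unrelated, and a difference found in both strains against WT can lie with the WT strain as well as with the knockouts. In bulk tumour RNA, fewer cells of a type and less RNA per cell cannot be told apart.

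Library totals, in units of 1e6 counts, were 317.9 ± 77.4 in the knockout strains (SD, n = 8) and 425.2 ± 72.5 in WT (SD, n = 4), with ranges of 230.4 to 424.6 and 327.1 to 484.0. The sides differed in total by an exact two-sided permutation test over the 495 arrangements of the libraries (p = 0.0485), and the part of depth in the results below was not tested beyond the covariate fits named there. The first principal component held 28.7% of the variance and did not part the sides, since S1pr1_KO replicate 3 lay at -102.1, near WT replicate 1 at -114.2. Whether the tumours of a strain are from separate mice is not stated, so p-values measure only the spread between these samples. The unit of level below is CPM, which scales each library to 1e6 counts with a correction for composition.

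The targeted genes did not part the sides. C3 stood at 182, 89.2, 90.3 and 43.3 CPM in WT, at 47.8, 74.5, 41.6 and 75.1 CPM in C3_KO and at 273, 182, 43.4 and 152 CPM in S1pr1_KO. The 3 strains overlapped, and the pooled log2 fold change, knockout over WT, was 0.13 ± 0.53 (SE, edgeR adjusted p = 0.916). S1pr1 stood at 6.87, 8.02, 2.88 and 3.05 CPM in WT, at 5.94, 6.76, 9.94 and 6.95 CPM in C3_KO and at 5.76, 7.43, 2.59 and 2.80 CPM in S1pr1_KO. Its pooled log2 fold change was 0.21 ± 0.39 (SE, edgeR adjusted p = 0.814). Both signs turned under some alternatives, as given in the closing section. Whole-gene counts from whole tumours do not show whether an exon was removed in the epithelium.

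The 8 knockout tumours differed from the 4 WT tumours in 9 genes, all lower, and 8 of these 9 were pseudogene copies of Rps2, the gene of a protein of the small ribosomal subunit, 7 by alignment and Rps2-ps8 by its name. Of 30660 genes tested, 0.0294% were called lower at an adjusted p under 0.05 and 0% were called higher (edgeR quasi-likelihood test, Benjamini-Hochberg adjustment). At an unadjusted p under 0.05, 2305 genes (7.52%) were lower and 2139 (6.98%) were higher, and 45.7% of all genes had a log2 fold change below 0. In 249 genes (0.812%) every knockout library lay below every WT library, and in 127 genes (0.414%) every knockout library lay above. Pseudogenes made up 28.1% of those 249 genes and 7.87% of those 127, beside 9.82% of all genes tested.

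The called copies are shown first because their sequences set how far their counts can be read. A processed pseudogene is a reverse-transcribed messenger RNA inserted elsewhere in the genome, usually silent, and reads from the parent can match it. In the GENCODE vM21 transcripts of the GRCm38 assembly, 43 genes tested aligned to at least 80% of the 882-base coding sequence of Rps2 with at least 90% identity, and their identities ran from 92.3 to 99.4%. Rps2-ps8, also called, had no transcript in that table. At 3 positions, counted from 1 at the A of the Rps2 start codon, most copies shared a base that the reference Rps2 lacks. These substitutions were T60A in 40 of 40 aligned copies, T204C in 40 of 43 and T756C in 36 of 40. All 3 lie at the third base of a codon. The 7 called copies with a transcript carried all of them. The stretches around them are given 5′ to 3′ for Rps2 and for 3 called copies, 15 bases to either side, with the base of Rps2 at the position and every base of a copy that differs from Rps2 in capitals.
Rps2, bases 45 to 75: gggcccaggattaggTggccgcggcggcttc
Gm12366: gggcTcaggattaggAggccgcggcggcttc
Gm7432: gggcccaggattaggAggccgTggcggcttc
Gm6139: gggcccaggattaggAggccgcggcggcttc
Rps2, bases 189 to 219: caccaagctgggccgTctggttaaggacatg
Gm12366, Gm7432 and Gm6139: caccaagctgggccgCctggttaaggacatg
Rps2, bases 741 to 771: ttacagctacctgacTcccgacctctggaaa
Gm12366, Gm7432 and Gm6139: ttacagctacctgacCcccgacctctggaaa
Apart from these positions and 2 single bases, the copies and Rps2 share every base shown. How the authors' counting treated reads that match several copies was not given in the sources used here. Accordingly, the copies are not 43 separate measurements.

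Gm12366, the copy on chromosome 4, shows the pattern of the called copies. Its level was 138, 87.3, 153 and 97.5 CPM in WT, 23.2, 29.7, 18.3 and 34.7 CPM in C3_KO and 13.1, 8.48, 35.0 and 12.5 CPM in S1pr1_KO. No knockout library reached the lowest WT library. Its log2 fold change was -2.44 ± 0.34 (SE), a level 5.44-fold higher in WT (edgeR adjusted p = 0.0435). Rps2-ps8, on chromosome 17, had WT values of 125 to 213 CPM and knockout values of 12.6 to 49.6 CPM, with a log2 fold change of -2.46 (edgeR adjusted p = 0.0435). The other called copies were Gm7432, Gm6139, Gm6576, Gm18025, Rps2-ps6 and Gm6311, on chromosomes 8, 5, 15, 12, 14 and 13, with log2 fold changes of -2.75 to -1.93 (edgeR adjusted p of 0.0435 to 0.0491). They are spread over the genome, and each lay lower in all 8 knockout libraries than in the 4 WT libraries. Over the 43 copies the median log2 fold change was -0.96, against 0.06 over all genes tested. Of the 43, 37 were below 0, beside 45.7% of all genes. In 15 of them every knockout library lay below WT, beside 0.812% of all genes. Because near-identical copies can share reads, these counts describe the family and carry no test.

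Rps2 itself did not part the sides. It stood at 2170, 1370, 2230 and 1740 CPM in WT, at 1310, 1970, 1110 and 565 CPM in C3_KO and at 843, 674, 2670 and 920 CPM in S1pr1_KO, with a log2 fold change of -0.58 ± 0.38 (SE, edgeR adjusted p = 0.462). Its highest value was in S1pr1_KO replicate 3, a knockout library. Of the counts assigned to Rps2 and its 43 copies together, the copies took 57.7, 57.6, 59.3 and 55.6% in WT, 39.5, 36.5, 41.7 and 59.2% in C3_KO and 38.8, 36.7, 33.8 and 37.4% in S1pr1_KO. The share was thus lower than in any WT tumour in 7 of 8 knockout tumours, and C3_KO replicate 4 lay among the WT tumours. C3_KO replicate 4 had the lowest Rps2 level of all libraries, while its copies lay within the range of the other C3_KO tumours. The summed level of the copies was 2560 ± 647 CPM in WT (SD, n = 4) and 804 ± 323 CPM in the knockouts (SD, n = 8), with no overlap (1860 to 3250 against 391 to 1360 CPM).

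**Figure D1:**
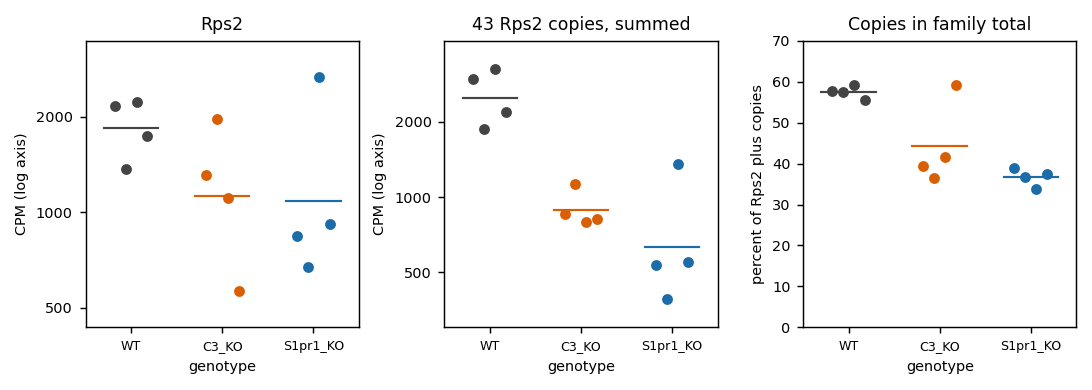
Rps2, the sum of its 43 aligned copies (both in CPM, log axes) and the copies' percent of the counts of Rps2 and these copies (linear axis), by genotype. Rps2-ps8, without a transcript to align, is in neither the sum nor the percent. Reads may be counted at several copies, so the percent is one of counts, not of reads. Each point is a library, and lines are geometric means in the first panels and the arithmetic mean in the last. The copies' sums part the 4 WT libraries from all 8 knockout libraries, Rps2 does not, and 1 C3_KO library at 59.2% lies with WT in the percent panel.

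Copies of other ribosomal protein genes were also mostly lower, but none was called. Of 192 tested pseudogenes named after 54 other ribosomal protein genes, 180 had a log2 fold change below 0 beside 45.7% of all genes, with a median of -0.80. In 14 of them the knockout libraries all lay below WT, beside 0.812% of all genes. Their smallest adjusted p was 0.293 (edgeR). Rnps1-ps, a pseudogene named after the splicing factor gene Rnps1, ranged from 17.3 to 36.3 CPM in WT and from 2.24 to 13.3 CPM in the knockouts, with C3_KO replicate 4 highest among them. Its log2 fold change was -2.36 (edgeR adjusted p = 0.110), while Rnps1 was at 0.11 (edgeR adjusted p = 0.872) with overlapping sides. Rnps1-ps was picked out after its values were seen.

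Npw, which encodes the secreted neuropeptide W, was the called gene that is not a pseudogene. Its level was 3.69, 1.61, 2.35 and 3.48 CPM in WT, 0.245, 0.304, 0.0729 and 0.394 CPM in C3_KO and 0.0819, 0.105, 0.240 and 0.0446 CPM in S1pr1_KO. The lowest WT tumour lay above every knockout tumour, and the level was low on both sides. The log2 fold change was -3.90 ± 0.52 (SE), or 14.9-fold higher in WT (edgeR adjusted p = 0.0435). Npw lies on chromosome 17 near Rps2, with 6 tested protein-coding genes between them in the gene order of RefSeq GRCm38.p6.

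The 9 calls rested on adjusted p-values just under the threshold. The count of genes called lower was 0 without any 1 of the 4 WT libraries, C3_KO replicate 1 or 3, or S1pr1_KO replicate 1 or 4. It was 2 without S1pr1_KO replicate 2, 6 without C3_KO replicate 2, and 16 without C3_KO replicate 4 or without S1pr1_KO replicate 3. The log2 fold change of Npw stayed between -4.14 and -3.73 and that of Rps2-ps8 between -2.58 and -2.32 over the same omissions, with adjusted p-values of 0.00718 to 0.158 for both (edgeR). Tools disagreed widely on the number: DESeq2 called 147 genes lower and 318 higher, and limma-voom with quality weights called 3985 lower and 2239 higher. With the log2 library total as a covariate no gene was called. The voom weights ran from 0.37 in S1pr1_KO replicate 3 to 2.3 in C3_KO replicate 4.

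Each knockout strain was then set against WT alone in a model with a mean per genotype, and no gene was called in either. The smallest adjusted p was 0.227 for C3_KO and 0.0536 for S1pr1_KO (edgeR), with 1909 and 4743 genes at an unadjusted p under 0.05. Without S1pr1_KO replicate 3, 1386 genes were called between S1pr1_KO and WT. Both comparisons use the same 4 WT libraries, so their values are given side by side only: Npw at log2 -3.45 and -4.55, Gm12366 at -2.17 and -2.78, Glo1 at -0.93 and -1.24, and Cdhr1 at 1.91 and 1.23, C3_KO first. Between the knockout strains themselves no gene was called (edgeR, smallest adjusted p = 0.358, 1042 genes at an unadjusted p under 0.05). The log2 difference of S1pr1_KO from C3_KO was -1.10 for Npw, -0.62 for Gm12366, -0.31 for Glo1 and -0.69 for Cdhr1. A p that misses the threshold does not show that the strains are alike.

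Glo1 and Cdhr1 parted the sides in every library, yet neither passed the test. Both were chosen with earlier results of these data known, so their separation carries no test. Glo1 encodes glyoxalase 1, which detoxifies methylglyoxal, a by-product of glycolysis. Its level was 131, 94.3, 158 and 122 CPM in WT, 60.2, 61.9, 59.4 and 83.2 CPM in C3_KO and 49.0, 45.2, 57.8 and 61.7 CPM in S1pr1_KO. Every knockout tumour lay below the lowest WT tumour, and C3_KO replicate 4 came closest. The log2 fold change was -1.08 ± 0.18 (SE), or 2.11-fold higher in WT (edgeR adjusted p = 0.0711). Cdhr1 encodes a cadherin-related protein known from photoreceptor outer segments. Its level was 28.1, 31.4, 17.5 and 24.2 CPM in WT, 66.6, 104, 97.1 and 114 CPM in C3_KO and 59.0, 84.3, 40.6 and 53.3 CPM in S1pr1_KO. All 8 knockout tumours lay above all WT tumours. The log2 fold change was 1.61 ± 0.29 (SE), or 3.06-fold higher in the knockouts (edgeR adjusted p = 0.113).

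Further genes lower in the knockouts did not pass either, and in all of those named here but Dynlt1f every knockout library lay below WT. Dynlt1b, Dynlt1c, Ankrd1, Thg1l and mt-Tr were named by a rule that asks for this, which 0.812% of all genes met. Dynlt1b and Dynlt1c, light chains of cytoplasmic dynein that link cargo to the motor, had log2 fold changes of -1.52 and -1.19 (edgeR adjusted p = 0.113 and 0.172). Dynlt1b stood at 118 to 356 CPM in WT, 82.7 to 95.8 CPM in C3_KO and 44.9 to 72.8 CPM in S1pr1_KO, and WT replicate 3 was the highest. The coding sequences of Dynlt1b, Dynlt1c and Dynlt1f are 342 bases long and 99.7 to 100% identical in GENCODE vM21, so their counts are uncertain. Dynlt1a, Dynlt1f and Dynlt1-ps1 had log2 fold changes of -1.19, -0.95 and -1.26, and Dynlt1f overlapped between the sides. Ankrd1, an ankyrin repeat protein known from stressed muscle, stood at 6.71, 20, 11.4 and 7.47 CPM in WT and 1.66 to 5.97 CPM in the knockouts, at log2 -2.09 (edgeR adjusted p = 0.113). Thg1l, a histidine tRNA guanylyltransferase, was at -0.98 and the mitochondrial arginine tRNA gene mt-Tr, only 68 bases long, at -2.68 (edgeR adjusted p = 0.186 for both). Cldn6, a tight junction claudin of embryonic epithelium, ranged from 1.41 to 5.39 CPM in WT and from 0.239 to 0.869 CPM in the knockouts, a log2 fold change of -2.57 (edgeR adjusted p = 0.0635). Its average level was below the minimum for naming, and it was picked out after its values were seen.

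Ten1, Cenpx and Engase lie at the far end of chromosome 11 and were lower in every knockout library than in WT. Ten1, a subunit of the telomere-binding CST complex, stood at 54.2, 46.4, 42.4 and 33.5 CPM in WT, and at 12.7 to 26.6 CPM in the knockouts, with a median of 16.1 CPM. The sides did not overlap, and the log2 fold change was -1.23 ± 0.22 (SE, edgeR adjusted p = 0.113). Cenpx, a histone-fold protein of the centromere and of DNA repair, stood at 78.8, 58.9, 65.7 and 48.4 CPM in WT and at 17.3 to 43.1 CPM in the knockouts, with a median of 24.9 CPM. Its log2 fold change was -1.19 ± 0.23 (SE, edgeR adjusted p = 0.144). Engase, which releases N-glycans in the cytosol, was at -0.87 (edgeR adjusted p = 0.278). In Ten1 and Cenpx, S1pr1_KO replicate 3 was the highest knockout library.

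Of the 127 genes with every knockout library above WT, 37 were protein-coding. The naming rule given below leaves out pseudogenes, predicted genes and genes of low level. Among the genes it admits, Cdhr1 was followed by Col4a6, Ddo and Spata13 in order of p. Col4a6, a chain of basement membrane collagen IV, stood at 45.6, 33.1, 43.2 and 36.3 CPM in WT and at 58.4 to 145 CPM in the knockouts, with a median of 117 CPM. Its log2 fold change was 1.44 ± 0.29 (SE, edgeR adjusted p = 0.192). Ddo, which oxidises D-aspartate, stood at 4.78, 6.19, 2.24 and 6.35 CPM in WT and 8.69 to 26.4 CPM in the knockouts, at log2 1.74 ± 0.35 (SE, edgeR adjusted p = 0.199). Spata13, a guanine nucleotide exchange factor, and Ahnak2, a very large scaffold protein, had log2 fold changes of 0.77 and 0.70 (edgeR adjusted p = 0.225 and 0.278). Adamtsl2, a secreted glycoprotein of the extracellular matrix, was at 12.0 to 32.7 CPM in C3_KO, 7.07 to 10.9 CPM in S1pr1_KO and 4.54 to 6.53 CPM in WT, at log2 1.26 (edgeR adjusted p = 0.293). The noncoding gene Cep83os was at 1.10 (edgeR adjusted p = 0.272), and its reads could belong to a neighbour, since the sources used here do not say whether strand was used. Teddm2, a predicted membrane protein, and the miRNA gene Mir8114 were at 2.13 and 2.24 (edgeR adjusted p = 0.293 for both). Their levels ran in parallel over the libraries, and the count of Mir8114 is that of a 111-base hairpin gene, not of a mature miRNA.

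**Figure D2:**
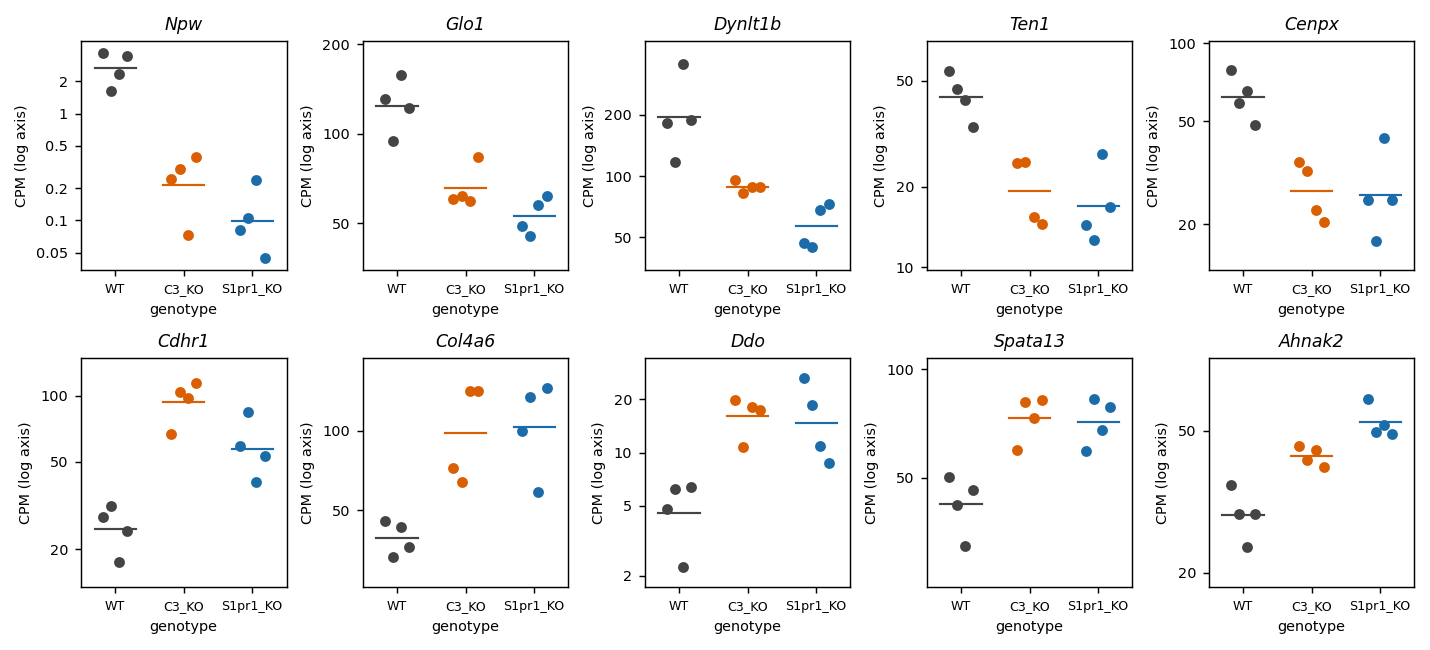
Levels of 10 genes by genotype, in CPM on log axes; each point is a library and lines are geometric means. In every panel the 4 WT libraries lie wholly above (upper row) or wholly below (lower row) the 8 knockout libraries. Apart from Npw, shown because it was called, the genes were chosen for this or with earlier results of these data known. Their separation was thus fixed by the choice. Of all genes tested, 0.812% were lower and 0.414% higher without overlap. Only Npw of these genes passed the adjusted threshold.

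Some genes known to differ between inbred mouse strains were examined because the strains were bred separately. Of 9 such genes tested, 4 were lower and 5 higher with a median of 0.22, and none was called. The sign of this median was not stable: it was -0.10 with the short-gene level described further on as a covariate, -0.08 with WT replicates 3 and 4 as the WT side, and -0.30 over the 7 protein-coding members with an average of at least 1 log2 CPM and a known GC content. Glo1, described above, is a member of this list and had its smallest p (edgeR adjusted p = 0.0711). It was the only member whose sides did not overlap. Nnt is the mitochondrial transhydrogenase that some C57BL/6 substrains lack. It ranged from 17 to 24.2 CPM in WT and from 22 to 39.5 CPM in the knockouts. Counts were thus present in every tumour, but whole-gene counts do not show whether the gene was intact. Gbp2b, an interferon-induced GTPase, stood at 10.2, 17.1, 10.9 and 16.3 CPM in WT, at 0.369, 2.75, 0.0380 and 23.2 CPM in C3_KO and at 0.628, 0.424, 0.0380 and 0.182 CPM in S1pr1_KO. In 7 of 8 knockout tumours it lay below every WT tumour, and C3_KO replicate 4 exceeded all 4 WT tumours. Its log2 fold change was -1.98 ± 1.38 (SE, edgeR adjusted p = 0.494). C3_KO replicate 4 is also the library whose Rps2 copy share lay with WT and whose Glo1 was the highest of the knockouts. Other values of this library lay away from WT. Its summed Rps2 copies, at 818 CPM, were below the WT range of 1860 to 3250 CPM. Its Cdhr1, at 114 CPM, and Adamtsl2, at 32.7 CPM, were the farthest from WT of all knockout libraries. Nnt and Gbp2b were picked out after their values were seen. The part of genetic background in any result was not tested.

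Genes of protein synthesis mostly had negative log2 fold changes, without a single call. All 30 cytosolic ribosomal protein genes had a log2 fold change below 0, with a median of -0.67, and 22 of them had an unadjusted p under 0.05 beside 7.52% of all genes. Their mean level was 9.94 to 10.37 log2 CPM in WT and 8.85 to 10.21 in the knockouts, with 6 of 8 knockout libraries below all WT libraries. Rpl10a, a large-subunit protein, stood at 864, 860, 1060 and 968 CPM in WT and 422 to 768 CPM in the knockouts, at log2 -0.66 (edgeR adjusted p = 0.293), and Rpl4 was at -0.68 (edgeR adjusted p = 0.293). Translation factors had 17 of 20 genes below 0 and a median of -0.31, and 3 had an unadjusted p under 0.05, with Eef1b2, an elongation factor subunit, at -0.73 (edgeR adjusted p = 0.295). Ribosome biogenesis had 17 of 20 below 0, a median of -0.41 and 6 at an unadjusted p under 0.05, with nucleophosmin, Npm1, at -0.68 (edgeR adjusted p = 0.320). Nuclear genes of oxidative phosphorylation had 19 of 22 below 0 with a median of -0.40, and 6 had an unadjusted p under 0.05. Mitochondrially encoded genes had 12 of 13 below 0 with a median of -0.37, but 0 of the 13 had an unadjusted p under 0.05, and their median was 0.04 with the library total as a covariate.

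Cell division genes also mostly had negative log2 fold changes, and none was called. All 20 mitosis genes were below 0 with a median of -0.40, but only 2 of the 20 had an unadjusted p under 0.05, beside 7.52% of all genes. In mean level 7 of 8 knockout libraries lay below WT while 1 lay above. Birc5, the survivin subunit of the chromosomal passenger complex, ranged from 48.5 to 119 CPM in WT and from 15.3 to 56.7 CPM in the knockouts, at log2 -1.36 (edgeR adjusted p = 0.293), and lies on chromosome 11. Ccnb2, a mitotic cyclin, was at -0.65 (edgeR adjusted p = 0.330). DNA replication had 19 of 20 genes below 0, a median of -0.31 and 5 at an unadjusted p under 0.05, with thymidine kinase, Tk1, also on chromosome 11, at -0.93 (edgeR adjusted p = 0.303). Centromere genes had 16 of 18 below 0 and a median of -0.35, with Cenps, the partner of Cenpx, at -1.13 (edgeR adjusted p = 0.293). Telomere-binding genes had 10 of 12 below 0 and a median of -0.27. Their mean level was 4.51 to 4.68 log2 CPM in WT and 4.15 to 4.42 in the knockouts, with no overlap. Ten1, described above as parting the sides, is a member of this list, and the level without it was not computed. The separation of the list is therefore not independent of Ten1. Acd of the shelterin complex was at -0.64 (edgeR adjusted p = 0.296).

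The lists around Glo1 and Dynlt1b also had medians below 0. Of 20 genes of the glyoxalase and glutathione enzymes, 15 were below 0 with a median of -0.41. Of all 20, 9 were below 0 at an unadjusted p under 0.05, beside 7.52% of all genes. Of 14 dynein light and intermediate chains, 9 were below 0 with a median of -0.38, and the near-identical Dynlt1 genes are among them. Among MHC class I presentation genes, 14 of 15 were below 0 with a median of -0.45, and 1 had an unadjusted p under 0.05. Psmb8, an immunoproteasome subunit, ranged from 169 to 253 CPM in WT and from 44.7 to 235 CPM in the knockouts, at log2 -0.87 (edgeR adjusted p = 0.311).

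Genes of vessels, matrix and adhesion leaned the other way. All 20 basement membrane genes were above 0, with a median of 0.64, and 7 of 8 knockout libraries lay above WT in mean level. Col4a5, the partner chain of Col4a6 on the X chromosome, ranged from 60.6 to 146 CPM in WT and from 103 to 268 CPM in the knockouts, at log2 0.96 (edgeR adjusted p = 0.293). Of 13 cadherins tested, 12 were above 0 with a median of 0.72, or 0.34 with the library total as a covariate, among them Cdhr1 and Fat4, a large atypical cadherin, at 0.99 (edgeR adjusted p = 0.312). Procollagen processing and ADAMTS-like genes had 19 of 22 above 0 and a median of 0.33, with Bmp1, a procollagen protease, at 0.69 and the microfibril protein Fbn1 at 1.17 (edgeR adjusted p = 0.278 and 0.293). Fibroblast and matrix genes had 23 of 25 above 0 and a median of 0.45, with the collagen VI chain Col6a3 at 1.24 (edgeR adjusted p = 0.293). In their mean level the sides overlapped, and only 2 of 8 knockout libraries lay above WT. Blood endothelial genes had 20 of 21 above 0 and a median of 0.56, and 5 of 8 knockout libraries lay above WT in mean level. Of all 21, 9 were above 0 at an unadjusted p under 0.05, beside 6.98% of all genes. Mmrn2 and the VEGF receptor gene Kdr stood at 0.84 and 0.82 (edgeR adjusted p = 0.293 and 0.296). No member of these lists was called.

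Markers of other cell types moved with these groups, and their part in the results was not tested. Adipocyte genes had 18 of 19 above 0 and a median of 1.69, with mean levels of 1.49 to 3.85 log2 CPM in WT and 2.27 to 6.12 in the knockouts. Scd1, a fatty acid desaturase, was at log2 1.14 (edgeR adjusted p = 0.293). B and plasma cell genes had 19 of 20 above 0 and a median of 2.69, but the median was 0.31 in C3_KO and 3.53 in S1pr1_KO. Blk, a B cell kinase, reached 8.62 and 3.91 CPM in S1pr1_KO replicates 1 and 2 and 0.0974 to 0.254 CPM in WT. T cell genes had 19 of 20 above 0 with a median of 0.73, but the median was 0.32 in C3_KO and 1.09 in S1pr1_KO. In their mean level 3 of 8 knockout libraries lay above WT and 2 lay below. Macrophage genes had 16 of 20 above 0 with a median of 0.33. Complement genes had 26 of 31 above 0 with a median of 0.46, and Cr2, a B cell complement receptor, was at 12.8 and 6.68 CPM in S1pr1_KO replicates 1 and 2 and at 0.0399 to 0.214 CPM in WT. Sphingosine-1-phosphate genes had 17 of 23 above 0 with a median of 0.13, and the kinase gene Sphk1 was at -0.89 (edgeR adjusted p = 0.330). Luminal epithelial genes, at 6.78 to 7.61 log2 CPM in WT and 6.38 to 7.37 in the knockouts, had a median of -0.12, and basal and myoepithelial genes one of -0.05, so the epithelium of the labelled tumours was present on both sides.

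A few lists were carried by single libraries. Milk protein genes had 17 of 20 above 0 and a median of 1.72, and Lalba, which makes the lactose synthase cofactor, reached 1850 CPM in C3_KO replicate 3 against 40.7 to 152 CPM in WT. Salivary gland genes had 10 of 11 above 0 and a median of 7.88, with the amylase gene Amy1 at 28700 and 1160 CPM in S1pr1_KO replicates 1 and 4 and 5.21 to 47.0 CPM in the other knockouts. The salivary median was -0.54 with the library total as a covariate. Without these 3 libraries the milk and salivary medians were 0.00 and 0.09, and the ribosomal protein, mitosis, basement membrane and endothelial medians were -0.49, -0.52, 0.67 and 0.56. Skeletal muscle genes had 16 of 16 below 0 with a median of -0.87. Myh7, a slow muscle myosin, stood at 98.4 CPM in WT replicate 2 and at 0.0443 to 0.0819 CPM in the other WT libraries, and the median of the list was 3.37 without WT replicate 2.

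**Figure D3:**
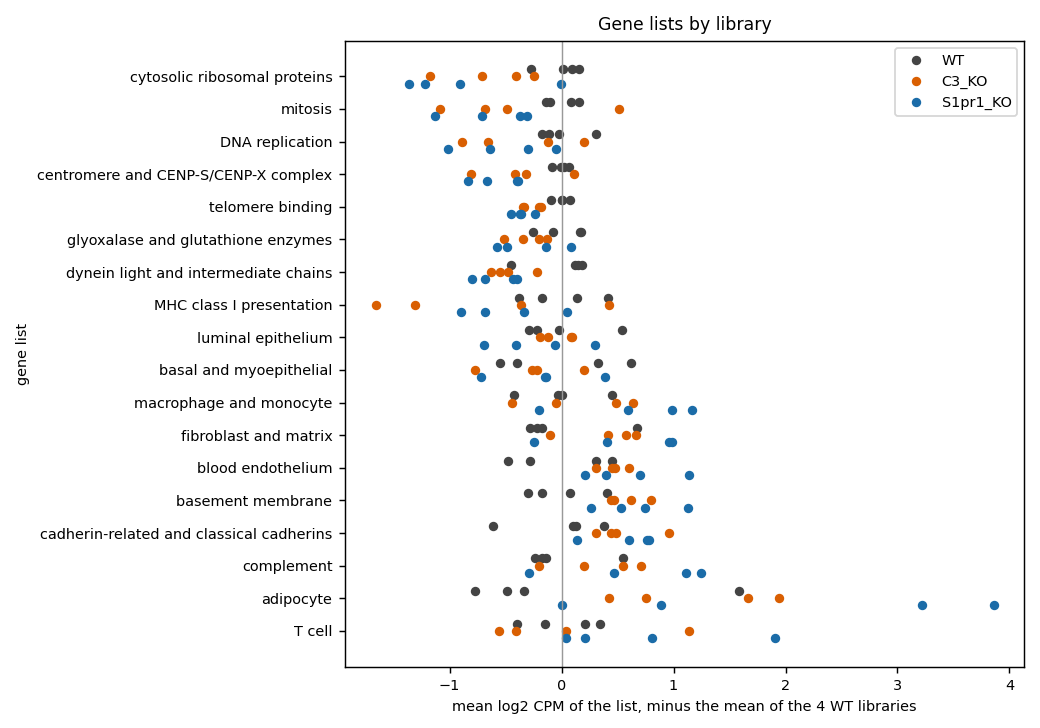
Mean log2 CPM of the measured members of 18 gene lists in each library, minus the mean of the 4 WT libraries; each point is a library. Telomere-binding genes, with Ten1 among them, show no overlap between WT and the knockouts. Ribosomal, mitosis and centromere lists lie mostly left of WT, basement membrane, endothelial and cadherin lists mostly right.

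Short genes were lower and long genes higher in the knockout tumours, and this moved with several lists. Of 12797 protein-coding genes with an average of at least 1 log2 CPM and a known GC content, split in 5 equal classes of length, the shortest class, up to 2548 bases, had a median log2 fold change of -0.34. In the next classes the median was -0.15, -0.03, 0.07 and, for genes over 7704 bases, 0.19. In single libraries, the level of the shortest class minus that of the longest, each against the mean of all libraries, was 0.53, 0.10, 0.49 and 0.36 in WT. It was 0.16, 0.31, -0.33 and -0.58 in C3_KO and -0.22, -0.77, 0.53 and -0.60 in S1pr1_KO, so 3 knockout libraries fell within the WT range and 5 below it. With this short-gene level as a covariate, added after the data were seen, no gene was called and the ribosomal protein median moved from -0.67 to -0.15. Other medians moved toward 0 in the same fit. Nuclear oxidative phosphorylation, the glyoxalase list and MHC class I presentation each moved to -0.07, translation factors to -0.08, mitochondrially encoded genes to -0.12, DNA replication to -0.13 and ribosome biogenesis to -0.14. Cadherins moved to 0.18, fibroblast and matrix genes and the procollagen list to 0.19, macrophage genes to 0.09, complement to 0.03, adipocyte genes to 0.72, and B and plasma cell genes to 1.02. The luminal epithelial median was 0.15, on the other side of 0. Mitosis stood at -0.45, centromere genes at -0.32, telomere binding at -0.26, dynein chains at -0.37, basement membrane at 0.43 and blood endothelium at 0.48. GC content moved with the comparison as well, from a median of 0.11 in the class of lowest GC to -0.17 in the class of highest.

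**Figure D4:**
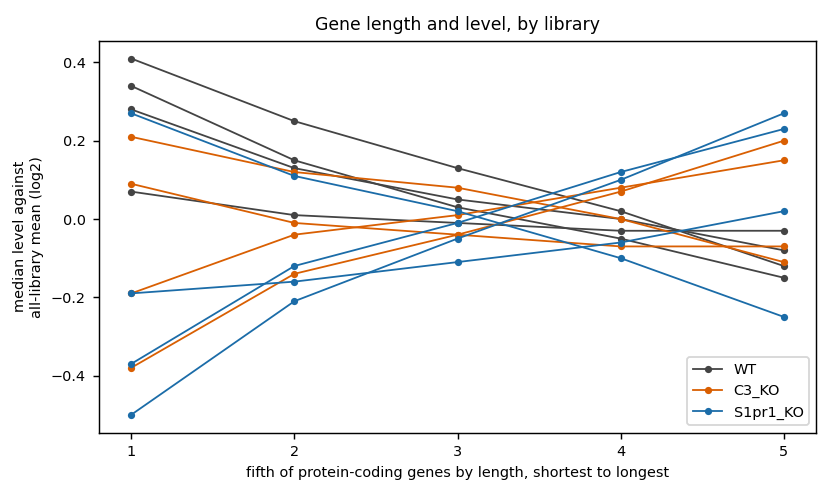
Median level of protein-coding genes in 5 equal classes of gene length, from shortest to longest, against the mean over all libraries (log2); each line is a library. All 4 WT lines descend from short to long genes, as do 3 knockout lines, while the other 5 knockout lines ascend.

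Along the chromosomes, the lowest stretch was the far end of chromosome 11. Protein-coding genes were grouped in 416 runs of 30 neighbours in the order of RefSeq GRCm38.p6. The median log2 fold change of a run lay between -0.63 and 0.68, and the last 5 runs of chromosome 11, from Cd300a to B3gntl1, had medians of -0.50 to -0.63. Of these 150 genes 135 were below 0, 82 had an unadjusted p under 0.05 beside 7.52% of all genes, and in 16 every knockout library lay below WT, beside 0.812%. None of the 150 was called, with a smallest adjusted p of 0.113 (edgeR). Of the 12647 other protein-coding genes of at least the same minimum level and known GC content, 6638 were below 0. Among these 12647, 1181 were lower at an unadjusted p under 0.05, and 103 were lower without overlap. The stretch was picked out because its run medians were low in these same data. The counts of its genes set beside all genes or the other genes therefore only describe it and carry no test. Within each class of gene length the 150 genes were lower than the rest, from -0.81 against -0.34 in the shortest class to -0.21 against 0.19 in the longest, where 9 genes stood. Their median was -0.57 for C3_KO and -0.59 for S1pr1_KO against the same WT libraries.

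The tail of chromosome 11 was not uniform within WT. After adjustment for length and GC, the median level of the 150 genes against the mean of all libraries was 0.40 and 0.69 in WT replicates 1 and 2, 0.14 in WT replicate 3 and -0.12 in WT replicate 4. In the knockouts it was -0.18 to 0.03. WT replicate 4 therefore lay among the knockout libraries, and WT replicates 1 and 2 stood above all others. Ten1, Cenpx, Engase, Birc5, Tk1 and Sphk1 lie on this chromosome. No run in the genome had every knockout library below every WT library after this adjustment, and 3 runs had every knockout library above. These were Ddo to Lilrb4a on chromosome 10, with an adjusted median difference of 0.14, and Gprin2 to Cgrrf1 and Uchl3 to Ggact on chromosome 14, with 0.32 and 0.28.

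**Figure D5:**
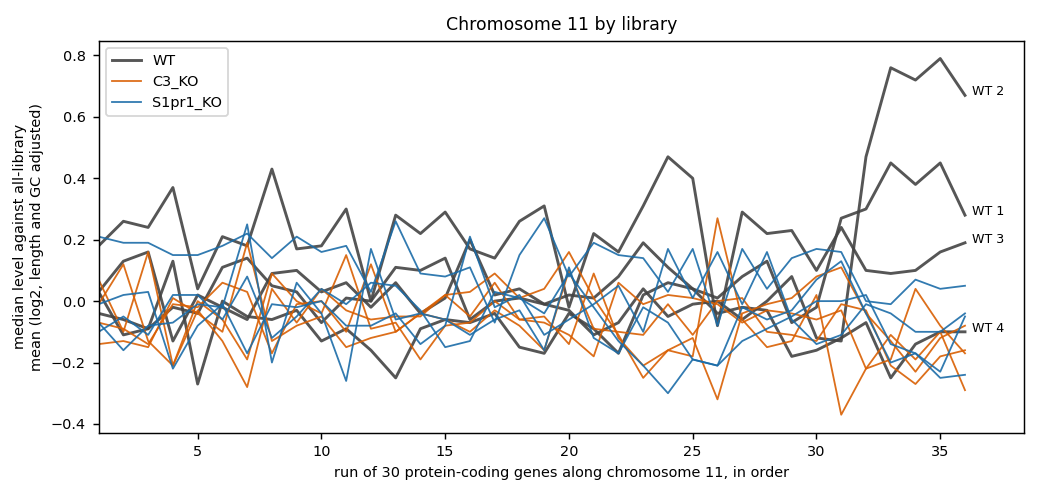
Median level of each run of 30 protein-coding genes along chromosome 11 against the mean over all libraries (log2, adjusted for gene length and GC); each line is a library, with WT libraries labelled. From run 32 on, WT replicates 2 and 1 rise above all other libraries while WT replicate 4 stays with the knockouts.

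Chromosome 17, where Npw and Rps2 lie, was also examined. Of its 850 tested protein-coding genes, 15 had every knockout library below WT (1.76%, beside 0.812% of all genes tested) and 0 had every one above. In gene order they included Dynlt1a, Dynlt1b, Dynlt1c, Cldn6, Npw, Rpl10a and Glo1. Rps2 lies between Npw and Rpl10a, and C3 lies further along, after Glo1. Of all 12982 protein-coding genes with an average of at least 1 log2 CPM, 119 had every knockout library below WT. Among those with a known GC content, chromosome 11 had 37 such genes of 1081 (3.42%). These 37 include the 16 of its far end, which was picked out for its low medians. Chromosome 16 had 7 of 399 (1.75%) and chromosome 17 had 11 of 635 (1.73%), so chromosome 17 did not stand apart from chromosome 16.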

How the data were processed

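Total RNA of 12 primary mouse tumours was sequenced as Illumina libraries, per the labels' protocols. The authors deposited whole-number counts and FPKM for 56860 genes. Of 682320 FPKM values, 682317 equalled the formula count over gene length and library total (relative tolerance 1e-04). Per the submitters' processing notes, StringTie and GRCm39 (mm39) were named; for aligner, counting program and strand handling: not given in the sources used here. Among counts of 1 to 50, 60.2 to 64.4% were even, so each fragment may count more than once, and Gm10925 had 99 to 100.3% of the count of mt-Atp6, its near-identical source, so reads matching several places may be counted at each.

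Counts were fitted with edgeR 4.0.16 (R 4.3.3): filterByExpr on the 2 sides, TMM scaling, robust quasi-likelihood F-test of 8 knockout against 4 WT libraries (10 residual degrees of freedom, common biological coefficient of variation 0.574), and a second model with a mean per genotype (9 degrees of freedom). Benjamini-Hochberg adjustment ran over 30660 genes, with calls under 0.05. Standard errors came from the F statistic. List levels are mean log2 CPM with a prior count of 2. Length and GC were adjusted by subtracting, within each library, the level expected from both. The fit was also run on simulated counts with planted changes. That simulation drew each gene on its own, with no shift by gene length or GC and no reads shared between copies. It therefore does not bear on those features. Biotypes and gene order came from RefSeq GRCm38.p6 and sequences from GENCODE vM21, an older build than the authors', so no coordinates are given. Of the genes tested, 23569 matched by symbol, 70 by synonym and 7021 were unmatched. Rps2 copies were aligned with Biopython.

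Genes were named by rule: a set list (Glo1, Cdhr1, C3, S1pr1, Adamtsl2, Ddo, Col4a6, Cenpx, Ten1, Engase, Dynlt1b), genes called with sides that do not overlap and an average of at least 1 log2 CPM, filled up to 8 per direction by smallest p, and members of smallest p per list. Pseudogenes and Npw, below that level or excluded from naming, are named because few genes were called. The comparison, lists and tests were chosen with earlier results of these data known. Alternatives were other scalings (RLE, upper quartile), filters, DESeq2 1.42.0, limma 3.58.1 on voom values with quality weights and on log2(FPKM + 1), covariates, each strain alone and omission of libraries.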

Additional observations from a re-analysis of the deposited data

Results flagged for a closer look

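In 420 groups of 4 or 8 libraries (63 genes and 42 gene lists), 1 library stood farther from the others than Dixon's 95% critical value in 19, where chance gives about 1 in 20. In C3_KO replicate 4, Glo1 was at 83.2 CPM (next 61.9 CPM), Cenps at 3.61 CPM (next 9.04 CPM), Fat4 at 8.33 CPM (next 4.07 CPM), and the mitochondrially encoded genes at a mean of 10.42 log2 CPM (next 11.53). In C3_KO replicate 3, Npm1 was at 929 CPM (next 540 CPM among all knockout libraries), the unfolded protein response at 7.19 log2 CPM (next 6.5 in C3_KO and 6.73 in all knockouts), milk proteins at 9.77 (next 5.61) and neutrophil genes at 1.81 (next -0.24). Cep83os was at 9.57 CPM in C3_KO replicate 1 (next 5.76 CPM). In S1pr1_KO, Scd1 was at 360 CPM in replicate 4 (next 1040 CPM), and hypoxia and glycolysis at 7.4 log2 CPM in replicate 3 (next 5.9).

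Among WT libraries, replicate 2 stood apart in Myh7 (98.4 CPM, next 0.0819 CPM) and in the mean log2 CPM of dynein chains (5.13, next 5.7), nuclear oxidative phosphorylation (6.8, next 7.14), complement (3.48, next 2.79) and fibroblast and matrix genes (7.0, next 6.15). WT replicate 1 stood apart in mt-Tr (21.9 CPM, next 10.9 CPM) and WT replicate 3 in MHC class II genes (4.1 log2 CPM, next 4.87). No gene was called between the knockout strains.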

How the results depend on the processing

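The count of genes called lower was 9. It was 0 with upper-quartile scaling, with the library total or the short-gene level as a covariate, for C3_KO alone, for S1pr1_KO alone, without the 3 libraries of high milk or salivary genes, and with WT replicates 3 and 4 as the WT side. It was 2 with RLE scaling, 147 with DESeq2 and 3985 with limma-voom, and 0 to 16 with 1 library left out. The count called higher was 0. It was 1 with a mean per genotype, 318 with DESeq2, 2239 with limma-voom, and 0 to 1 with 1 library left out. Genes lower without overlap numbered 249. They were 144 with at least 1 CPM in 4 libraries, 134 with upper-quartile scaling, 526 for C3_KO alone, 1472 for S1pr1_KO alone, 485 without the 3 libraries, 1973 with WT replicates 3 and 4, and 208 to 1047 with 1 library left out. Genes higher without overlap numbered 127. They were 222, 405, 851, 336 and 1623 with upper-quartile scaling, for each strain alone in the same order, without the 3 libraries, and with WT replicates 3 and 4, and 128 to 571 with 1 library left out. Fewer libraries leave less to overlap. Between S1pr1_KO and WT 23 genes were called with the CPM filter, 10 without a filter and 0 to 1386 with 1 library left out. C3_KO against WT gave 0 to 8 and the knockouts against each other 0 to 3. Upper-quartile scaling moved the median of all genes from 0.06 to 0.16. The other causes were not tested.

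C3 changed sign, to -0.04 with a mean per genotype, -0.76 for C3_KO alone, -0.95 with the total and -0.59 with the short-gene level as a covariate, -0.21 without the 3 libraries, and -0.15 to 0.58 with 1 library left out. S1pr1 was at -0.17 for S1pr1_KO alone and -0.09 with the short-gene level. Amy1 was at -0.22 for C3_KO alone and -0.32 with the total as a covariate, and Myh7 at 1.00 with WT replicates 3 and 4 and -8.31 to 1.00 with 1 library left out. Rps2 was at 0.11 with the short-gene level and Rnps1 at -0.10 with limma-voom. No paired analysis was possible because the labels give the 3 strains no shared replicate numbers. The fit with short-gene level and that with WT replicates 3 and 4 were added after the data were seen. Depth sets a limit for Npw, whose knockout levels were 0.0446 to 0.394 CPM.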
